A study of Mus musculus with 6 samples.

Results

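Thymic cells with CD8 RNA and no Dntt RNA were compared between a library labelled Pdcd1fl/fl and a library labelled Pdcd1 cKO, each made from the thymus of 1 adult mouse. A barcode was a member when it had at least 500 genes, at least 1000 unique molecular identifiers (UMIs, each counting 1 RNA molecule), at most 20% of UMIs from mitochondrial genes, at least 1 UMI of Cd8a or Cd8b1, and 0 UMIs of Dntt. This gate kept 1196 of 3702 filtered thymus cells, out of 11125 filtered cells in the 6 libraries of thymus, spleen and B16-OVA melanoma. It kept 240 of 1067 cells of the Pdcd1fl/fl library (22.5%, exact Clopper-Pearson 95% interval 20.02 to 25.1%) and 956 of 2635 of the Pdcd1 cKO library (36.3%, 34.4 to 38.2%). Both mice carried floxed Pdcd1 alleles on the C57BL/6 background, and the Pdcd1 cKO mouse also carried the E8I CD8-Cre transgene, which acts in CD8 lineage cells after positive selection. The cells were taken with a CD8a+ T cell isolation kit, with no treatment, and the study asked how PD-1, the inhibitory receptor encoded by Pdcd1, shapes CD8 T cells as they leave thymic selection.

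Thymocytes first assemble their receptor genes, a stage marked by the recombinase genes Rag1 and Rag2 and by Dntt, which adds bases at the joints, and they divide rapidly before and after the first receptor chain is tested. Positive selection then stops recombination and commits cells to the CD4 or CD8 lineage. Single-positive CD8 cells go on to gain Ccr7, the chemokine receptor that brings them to the medulla, and then S1pr1 and Klf2, which serve egress to the blood.

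Each genotype had 1 thymus library, so no test between genotypes was possible and no p-value is given. Every ratio is the CPM (counts per 1000000 UMIs) of the summed gated cells of the library labelled Pdcd1 cKO over that of the library labelled Pdcd1fl/fl, on the log2 scale, with an exact conditional binomial 95% interval that covers counting error only. A difference between mice, between cell preparations and between genotypes cannot be told apart here. The gated cells summed to 962825 UMIs for Pdcd1fl/fl and 5127568 for Pdcd1 cKO, with medians of 3500.5 and 4905 UMIs per cell. Because the gate reads sparse counts, the deeper library can pass its CD8 part more easily, and the shallower library its Dntt part. With every cell thinned to 1000 UMIs before the gate was read, it kept 17.5% (15.3 to 19.9%) and 31.0% (29.2 to 32.8%). Exactly 1 CD8 UMI let in 79 and 138 cells, and 101 and 371 cells with CD8 RNA were just outside the gate because of exactly 1 Dntt UMI. No barcode was shared by the thymus libraries. Below, they are called the fl/fl-labelled and the cKO-labelled library, and paired values give the fl/fl-labelled library first.

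The gated cells were checked against markers after the same thinning. Cd3e, a chain of the T cell receptor complex, had a UMI in 29.2% and 29.0% of gated cells of the fl/fl-labelled and cKO-labelled libraries, and in 22.7% and 25.8% of the cells outside the gate that had a Dntt UMI and no CD8 UMI, with overlapping intervals. Ccr7 had a UMI in 32.9% and 40.3%, against 4.65% and 5.93% outside the gate, and Trac, the receptor alpha chain, in 29.2% and 37.3% against 5.17% and 4.41%. Rag1 had a UMI in 1.67% and 0.523%, against 6.72% and 4.10% outside the gate. The gated cells thus carried Ccr7 and Trac more often, and Rag1 less often, than the cells outside. Cd4 had a UMI in 0 of 240 gated cells, where 3 cells would be 1.25%, and in 0.418% (0.114 to 1.07%), but with 0 of 387 and 0.152% outside the gate it does not separate the stages at this depth. Zbtb16, the factor of innate-like T cells, had a UMI in 1.25% and 0.523%. Trdc, the receptor delta chain, had one in 3.33% and 3.03%, against 18.9% and 17.3% outside the gate. Before thinning, Trdc was seen in 15.0% and 14.7% of gated cells. Of 24 myeloid markers only Cst3 reached 20 UMIs, and of 20 B cell markers 7 did, with list sums of 469 and 326 CPM. Xist was at 0 and 3 UMIs and the Y-linked Ddx3y at 279 and 298 CPM, so both libraries looked male. Beyond the limits on genes, UMIs and mitochondrial share, the members were chosen by their counts of Cd8a, Cd8b1 and Dntt. Cd8a and Cd8b1 stood at 230 and 326 CPM and at 599 and 664 CPM, which describes the gate and is no result.

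Pdcd1, the targeted gene (chr1:93966027-93980312, minus strand, GRCm39), went against the labels. It had 1 UMI (1.04 CPM) in the fl/fl-labelled library and 72 UMIs (14.0 CPM) in the cKO-labelled library, a log2 ratio of 3.76 (1.23 to 9.08). Of the 72 UMIs, 56 lay in the 172 Ccl5-high cells, with at least 10 UMIs of this effector chemokine and not counted as cycling or stromal-marked. In gated cells of the spleen Pdcd1 had 1 and 89 UMIs (4.07, 1.56 to 9.39), and in those of the tumor 700 and 795 (0.10, -0.05 to 0.25), so in no tissue was it lower in the cKO-labelled library. The counts are per gene and do not show which exons the molecules held, so RNA that outlasts the deletion or lies outside it would be counted too, and which was the case was not tested. Whether the labels of the libraries were exchanged was not tested either, and every ratio below would turn its sign if they were. The libraries are therefore named by their labels throughout.

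Across the 6070 genes with at least 100 UMIs over both libraries, 109 were at least 2-fold higher in the cKO-labelled library (1.8%) and 356 were at least 2-fold lower (5.86%). The median ratio was -0.29, and 25.7% of the genes lay above 0. This shift goes with the cytosolic ribosomal protein genes, which took 28.2% of all UMIs in the fl/fl-labelled library and 38.4% in the cKO-labelled library. When the ratios were centred by the median of ratios, which adds 0.29 to each, 230 genes were at least 2-fold higher (3.79%) and 108 at least 2-fold lower (1.78%). The scale thus decided which direction held more genes, and a CPM ratio below is best read against -0.29. Among the 10598 genes with at least 20 UMIs, which the gene lists below use, 4.53% were at least 2-fold higher and 10.6% at least 2-fold lower, and the median was -0.30. By the median of ratios these shares were 8.2% and 5.1%.

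The 2 directions held different kinds of genes. Of the 109 higher genes, 88 were protein-coding (80.7%), against 342 of the 356 lower genes (96.1%) and 97.1% of all genes tested. Among the higher genes, 47 had at most 10 UMIs in the fl/fl-labelled library, so the size of their ratios is loosely set. At least 50% of the UMIs came from 1 cell in 9 of the higher genes and in 11 of the lower genes, counted in the library where each was higher. Zfp57, an imprinting factor, was such a case, chosen here after its values were seen: all 109 of its UMIs in the cKO-labelled library lay in 1 cell. The genes named next had a UMI in at least 5% of the gated cells of the library where they were higher.

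**Figure D1:**
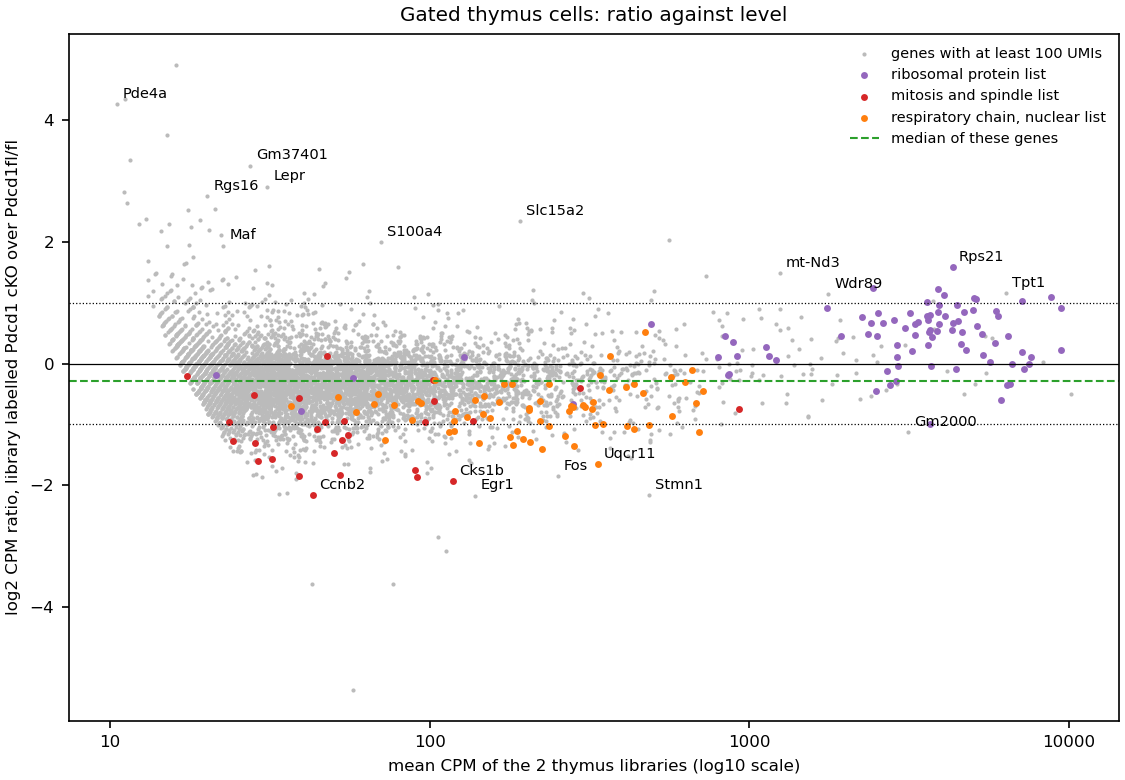
Log2 CPM ratio (cKO-labelled over fl/fl-labelled library) against mean CPM (log10 scale) for the 6070 genes with at least 100 UMIs in gated thymus cells. Each point is a gene, coloured points are 3 gene lists, dotted lines mark 2-fold and the dashed line the median of -0.29; ribosomal protein genes sit mostly above 0, and mitosis and nuclear respiratory chain genes sit mostly below the median.

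The 12 highest protein-coding ratios outside the effector, exhaustion, naive and ribosomal protein lists belonged to genes of varied roles. Slc15a2, a proton-coupled importer of small peptides (chr16:36570475-36605334, minus strand), had the most UMIs of them. It stood at 61 UMIs (63.4 CPM) in the fl/fl-labelled library and 1643 UMIs (320 CPM) in the cKO-labelled library, a log2 ratio of 2.34 (1.97 to 2.73). A Slc15a2 UMI was found in 19.6% and 74.5% of gated cells, and in 4.17% (2.02 to 7.53%) and 27.4% (24.6 to 30.4%) of cells thinned to 1000 UMIs. No other protein-coding gene of the 12 highest reached 200 CPM in either library.

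Pde4a encodes a phosphodiesterase that breaks down cyclic AMP, a second messenger that restrains T cell receptor signals. It had 1 UMI (1.04 CPM) against 102 UMIs (19.9 CPM), a log2 ratio of 4.26 (1.75 to 9.58). Lepr, the leptin receptor (chr4:101574601-101676237, plus strand), had 7 UMIs (7.27 CPM) against 280 (54.6 CPM), a log2 ratio of 2.91 (1.85 to 4.24), and was seen in 1.25% and 19.1% of cells. Both genes were close to absent from the fl/fl-labelled library and spread over many cells of the other, where no cell held more than 3 of the 102 Pde4a UMIs or 19 of the 280 Lepr UMIs.

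Rgs16, which shuts off G protein signals from chemokine receptors, stood at 5.19 and 35.1 CPM, a log2 ratio of 2.76 (1.51 to 4.40). Smoc1, a secreted matrix protein, stood at 6.23 and 32.0 CPM, 2.36 (1.21 to 3.83), and Cdh1, the adhesion molecule E-cadherin, at 4.15 and 20.5 CPM, 2.30 (0.90 to 4.20). Car2, a carbonic anhydrase, stood at 4.15 and 21.6 CPM, 2.38 (0.98 to 4.28). All 4 rested on 4 to 6 UMIs in the fl/fl-labelled library, so their lower bounds say more than their ratios. Maf, a transcription factor of several T helper and innate-like lineages, stood at 9.35 and 35.9 CPM, 1.94 (0.98 to 3.09), and H1f4, a linker histone, at 6.23 and 23.8 CPM, 1.93 (0.77 to 3.41). Spsb1, an adaptor for ubiquitin ligases, stood at 6.23 and 36.5 CPM, but 106 of its 187 UMIs in the cKO-labelled library lay in 1 cell. Cxcl10, an interferon-induced chemokine, stood at 6.23 and 29.4 CPM, with 49 of 151 UMIs in 1 cell.

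S100a4, a calcium-binding protein of effector and memory T cells, stood at 28.0 and 112 CPM, a log2 ratio of 2.00 (1.45 to 2.62). In the Ccl5-high cells S100a4 stood at 28.5 and 455 CPM (3.99), and in cycling-marker-high cells it had 0 and 66 UMIs. The 39 Ccl5-high cells of the fl/fl-labelled library summed to 140133 UMIs, so the 28.5 CPM rests on few UMIs and the ratio is loosely set. In Ccr7-positive cells S100a4 stood at 18.4 and 15.8 CPM (-0.22), and without all cells with at least 10 Ccl5 UMIs its ratio was -0.30. The medians of all genes were -0.32 and -0.33 there. The CPM ratio of S100a4 thus changed sign but lay near the median of all genes. Slc15a2 behaved otherwise, with ratios of 1.34 in Ccl5-high cells and 2.31 in Ccr7-positive cells.

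**Figure D2:**
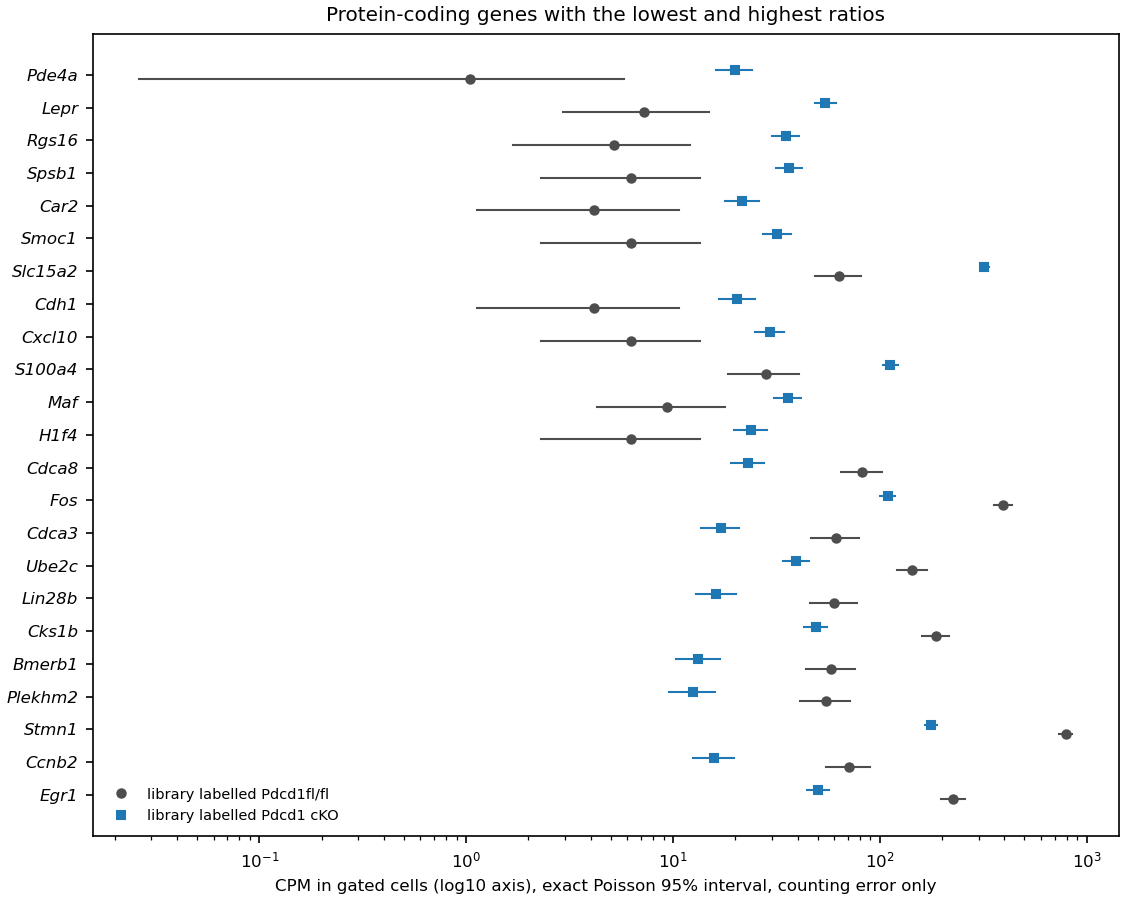
CPM of the 12 protein-coding genes with the highest and 11 of the 12 with the lowest ratios in gated cells of the fl/fl-labelled (circles) and cKO-labelled (squares) thymus libraries, on a log10 axis with exact Poisson 95% intervals for counting error. Slc15a2 at 63.4 and 320 CPM and Stmn1 at 792 and 177 CPM have narrow intervals, while Pde4a at 1.04 CPM rests on 1 UMI.

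The same ratios were read in thymus cells outside the gate, namely the 387 and 658 cells with a Dntt UMI and no CD8 UMI. A cell with no CD8 UMI may still hold CD8 RNA, and these cells come from the same 2 libraries, so the values are set side by side only. Of 7246 genes with at least 100 UMIs there, the median ratio was -0.0019, against -0.29 in gated cells, and 4.73% were at least 2-fold higher and 3.71% at least 2-fold lower. Slc15a2 stood at 21.1 and 237 CPM outside the gate, a log2 ratio of 3.49 beside 2.34 in gated cells. After thinning it was seen in 1.29% and 26.0% of cells outside the gate. Lepr stood at 1.27 and 57.8 CPM (5.51 beside 2.91), Pde4a at 0.844 and 13.3 CPM (3.98 beside 4.26) and Smoc1 at 8.44 and 31.8 CPM (1.91 beside 2.36). All 4 were thus higher in the cKO-labelled library in both sets of cells, and with 1 to 20 UMIs of Lepr, Pde4a and Smoc1 in the fl/fl-labelled library their ratios cannot be ordered between the sets. Maf had a ratio of 2.29 outside the gate and H1f4 one of 1.95.

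The 8 largest gains in CPM were taken among protein-coding genes outside the effector, exhaustion, naive and ribosomal protein lists. Mitochondrial genes were left out as well. Of these 8, the abundant genes Tpt1, Wdr89 and Fau were the ones past 2-fold. Tpt1, which encodes translationally controlled tumor protein, stood at 3950 and 8784 CPM, a log2 ratio of 1.15 (1.11 to 1.20). Wdr89, a WD repeat protein, stood at 1103 and 2437 CPM, 1.14 (1.05 to 1.24), and Fau, a precursor that yields a ribosomal protein, at 2473 and 5073 CPM, 1.04 (0.98 to 1.10). The other large gains fell short of 2-fold: Tmsb4x, which binds actin monomers (0.46), the translation elongation genes Eef1a1 (0.42) and Eef1b2 (0.89), B2m, the light chain of MHC class I (0.56), and Vmp1, a membrane protein of autophagy (0.71). Outside the gate Tpt1 stood at 2389 and 5189 CPM (1.12) and Wdr89 at 867 and 1749 CPM (1.01).

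Mitochondrial genes and the same lists were left out of the losses in CPM too. Among the other protein-coding genes the largest loss was in Gm2000, a predicted gene. Gm2000 stood at 4296 and 1964 CPM, a log2 ratio of -1.13 (-1.18 to -1.08). It stood at 4325 and 1790 CPM outside the gate (-1.27). The other large losses were Crip1, a LIM domain protein (-0.89), Sub1, a transcription coactivator (-0.87), Ubb, which encodes ubiquitin (-0.58), Ptma, prothymosin alpha (-0.53), H3f3b, a replacement histone (-0.44), Ppia, a prolyl isomerase (-0.61), and Pabpc1, the poly(A) binding protein (-0.34). Near-identical copies of several of these abundant genes exist in the mouse genome, and how the counting split their reads is not given in the sources used here.

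The protein-coding genes with low ratios included several outside the cell cycle. Bmerb1, a protein that binds microtubules, stood at 58.2 and 13.3 CPM, a log2 ratio of -2.13 (-2.66 to -1.60), and outside the gate at 176 and 25.4 CPM (-2.80). Plekhm2, an adaptor for lysosome transport, stood at 55.0 and 12.5 CPM, -2.14 (-2.69 to -1.59), but 27 of its 53 UMIs in the fl/fl-labelled library lay in 1 cell. Lin28b, an RNA-binding protein of fetal progenitors, stood at 60.2 and 16.2 CPM, -1.90 (-2.40 to -1.39). Lin28b turned direction in Ccr7-positive cells, where it had 1 and 33 UMIs (1.88).

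Genes of cell division filled most of the remaining low places. Stmn1, which takes microtubules apart and marks cycling lymphocytes, stood at 763 UMIs (792 CPM) and 909 UMIs (177 CPM), a log2 ratio of -2.16 (-2.30 to -2.02). Ccnb2, a mitotic cyclin, stood at 70.6 and 15.8 CPM, -2.16 (-2.64 to -1.67). Cks1b, a cyclin-dependent kinase subunit, stood at 187 and 49.0 CPM, -1.93 (-2.22 to -1.65). Ube2c, the ubiquitin-conjugating enzyme of the anaphase-promoting complex, stood at 143 and 39.4 CPM, -1.86 (-2.18 to -1.54). Cdca3, a cell cycle adaptor, stood at 61.3 and 17.0 CPM, -1.85 (-2.35 to -1.35), and Cdca8, a subunit of the chromosomal passenger complex, at 82.1 and 23.01 CPM, -1.83 (-2.26 to -1.40). The fl/fl-labelled library held 15.8% of all gated UMIs and between 40.1% and 45.6% of the UMIs of each of these 6 genes.

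The mitosis and spindle list as a whole stood lower. Of 54 measured members 28 were at least 2-fold lower and 0 at least 2-fold higher, beside 10.6% and 4.53% of all genes with at least 20 UMIs, and 52 had a ratio below 0. The median was -1.07, or -0.77 by the median of ratios, where 19 were at least 2-fold lower. Birc5, the passenger protein survivin, stood at 138 and 41.2 CPM (-1.75), and Mki67, the proliferation antigen, at 76.9 and 33.9 CPM (-1.18). Pttg1, securin, was the highest member at 45.7 and 49.9 CPM (0.13, -0.34 to 0.62). In the S phase and replication list 22 of 55 members were at least 2-fold lower, 0 at least 2-fold higher, and the median was -0.85. Tyms, thymidylate synthase, stood at 124 and 43.9 CPM (-1.49), Rrm2, a ribonucleotide reductase subunit, at 58.2 and 23.99 CPM (-1.28), and Mcm3, of the replicative helicase, at 99.7 and 46.4 CPM (-1.10). The division genes were thus lower together, from nucleotide supply to the spindle.

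The promoters of the 5 mitosis list genes among the 12 lowest ratios are shown because late cell cycle genes are known to share CCAAT boxes, bound by NF-Y, and the cell cycle homology element TTTGAA. Each line gives 200 bases that end just before the gene's annotated start, read in the direction of transcription (RefSeq, GRCm38.p6). Capitals mark CCAAT or its other strand ATTGG, and TTTGAA or its other strand TTCAAA. The windows are chr9:70421555-70421754 on the minus strand for Ccnb2, chr3:89418292-89418491 on the minus strand for Cks1b, chr2:164769729-164769928 on the plus strand for Ube2c, chr6:124829976-124830175 on the plus strand for Cdca3 and chr4:124936918-124937117 on the minus strand for Cdca8.
Ccnb2: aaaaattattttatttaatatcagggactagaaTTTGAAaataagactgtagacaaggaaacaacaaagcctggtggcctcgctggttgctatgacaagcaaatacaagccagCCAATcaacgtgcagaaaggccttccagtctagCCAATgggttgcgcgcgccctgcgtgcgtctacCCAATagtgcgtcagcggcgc
Cks1b: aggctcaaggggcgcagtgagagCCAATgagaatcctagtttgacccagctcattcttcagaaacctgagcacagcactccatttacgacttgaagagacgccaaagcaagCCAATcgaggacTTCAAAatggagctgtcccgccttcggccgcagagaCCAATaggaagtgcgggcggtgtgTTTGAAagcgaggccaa
Ube2c: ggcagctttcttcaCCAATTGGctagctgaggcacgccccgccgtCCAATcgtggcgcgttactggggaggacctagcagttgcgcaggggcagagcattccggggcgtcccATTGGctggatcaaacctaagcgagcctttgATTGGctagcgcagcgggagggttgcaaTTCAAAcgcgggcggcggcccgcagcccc
Cdca3: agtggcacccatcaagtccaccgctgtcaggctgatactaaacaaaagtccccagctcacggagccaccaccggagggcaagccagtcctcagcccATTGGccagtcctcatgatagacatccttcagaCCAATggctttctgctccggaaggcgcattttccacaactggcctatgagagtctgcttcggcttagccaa
Cdca8: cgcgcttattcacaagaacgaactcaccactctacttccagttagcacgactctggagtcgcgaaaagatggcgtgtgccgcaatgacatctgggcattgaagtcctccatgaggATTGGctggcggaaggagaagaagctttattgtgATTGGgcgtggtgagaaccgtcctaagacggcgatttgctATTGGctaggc
Ccnb2 and Cks1b held 3 CCAAT matches each, Ube2c 5, Cdca3 2 and Cdca8 3. Overlapping matches were each counted, as in the first CCAATTGG of Ube2c. Over 250 bases before the start, 50 windows of 47 mitosis list genes matched by symbol, and 39 of them (78.0%) held a CCAAT or ATTGG, against 33.8% of all 32851 RefSeq windows of that length. At least 2 matches were in 56.0% of the mitosis windows and 10.1% of all windows. TTTGAA or TTCAAA was in 44.0% and 16.0%. A match is a description of the letters, and no binding was measured here.

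Cells with cycling markers were counted from 4 markers, Mki67, Top2a, Birc5 and Cdk1. Mki67 and Birc5 are also in the mitosis list, so the count cannot say how much of the low list ratio lay in cell number. At least 3 UMIs over these markers were found in 55 of 240 gated cells of the fl/fl-labelled library (22.9%, 17.8 to 28.8%) and in 75 of 956 of the cKO-labelled library (7.85%, 6.22 to 9.73%). The cells lie on a range: 14 and 31 cells had exactly 3 such UMIs and 22 and 86 had 2. The library with fewer UMIs per cell had the higher share. Stmn1 after thinning had a UMI in 33.8% (27.8 to 40.1%) and 13.8% (11.7 to 16.2%) of cells. It was named for its low ratio in these same cells, so this is a description and no separate support. Outside the gate Stmn1 was seen in 78.6% and 43.8% of thinned cells. Within the cells with 3 or more marker UMIs the median of the mitosis list was -0.47 over 49 members and that of the S phase list -0.07 over 47. In Ccr7-positive cells, with at least 2 Ccr7 UMIs and none of the other classes, the medians were -0.54 over 33 members and -0.62 over 49. All genes had medians of -0.13 and -0.32 in these classes. These classes were cut from the same counts, so the medians within them are descriptions.

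The nuclear-encoded subunits of the respiratory chain, which feed and run mitochondrial ATP synthesis, stood lower across the list. Of 65 measured members 63 had a ratio below 0, 19 were at least 2-fold lower (29.2%) and 0 at least 2-fold higher. Of all genes with at least 20 UMIs, 10.6% were at least 2-fold lower and 4.53% higher. The median was -0.73, or -0.44 by the median of ratios. On that scale 5 of the 65 were at least 2-fold lower, beside 5.1% of all genes. Uqcr11, of complex III, stood at 490 UMIs (509 CPM) and 833 UMIs (162 CPM), a log2 ratio of -1.65 (-1.81 to -1.48). Ndufb8, of complex I, stood at 326 and 124 CPM (-1.40), Cycs, cytochrome c, at 405 and 159 CPM (-1.35), and Cox6a1, of complex IV, at 957 and 440 CPM (-1.12). Cox7a2l, a factor that joins complexes, was the highest at 389 and 555 CPM (0.51). The median of the list was -0.47 in Ccr7-positive cells, where all genes had -0.32 and 6 of the 65 members were at least 2-fold lower. It was -0.68 in Ccl5-high cells (all genes -0.09), -0.90 in cells with 3 or more cycling marker UMIs (-0.13) and -0.78 outside the gate (-0.0019), where Uqcr11 stood at 914 and 370 CPM (-1.31).

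Over all gated cells, lists of 2 further cell machines stood lower as well. In the mitochondrial ribosome list 72 of 78 members lay below 0, with a median of -0.64. At least 2-fold lower were 13 (16.7%, beside 10.6% of all genes) and 0 were higher, and Mrps18c stood at 221 and 83.5 CPM (-1.41). By the median of ratios the list median was -0.34, and 6 of the 78 were at least 2-fold lower, beside 5.1% of all genes. In the proteasome list 35 of 37 lay below 0 and 3 were at least 2-fold lower, with a median of -0.60, and Psmc4, an ATPase of the regulatory particle, stood at 157 and 77.03 CPM (-1.03). In Ccr7-positive cells the medians of these 2 lists were -0.36 and -0.34, near the -0.32 of all genes. They were -0.43 and -0.05 in Ccl5-high cells (all genes -0.09). In cells with 3 or more cycling marker UMIs they were -0.74 and -0.75 (all genes -0.13). Outside the gate they were -0.66 and -0.59 (all genes -0.0019). The 3 proteasome genes at least 2-fold lower of 37 (8.11%) are near the background of 10.6%. By the median of ratios 0 of the 37 were at least 2-fold lower, and the proteasome median was -0.30. In the lipid and cholesterol synthesis list 7 of 27 were at least 2-fold lower (25.9%, beside 10.6% of all genes), with a median of -0.62. The list was led by Fdps, the farnesyl diphosphate synthase, at 94.5 and 36.1 CPM (-1.39). By the median of ratios 2 of the 27 were at least 2-fold lower, beside 5.1% of all genes. The median of the lipid list was -0.73 over 21 members in Ccr7-positive cells (all genes -0.32) and 0.02 outside the gate. It was 0.16 over 8 members in Ccl5-high cells (all genes -0.09) and -0.19 over 13 in cycling-marker-high cells (-0.13). In the remaining gated cells it was -0.09 over 12 (all genes -0.22). In the glycolysis list 24 of 25 lay below 0, with a median of -0.48. Only Ldhb, a lactate dehydrogenase subunit, was at least 2-fold lower at 49.9 and 24.8 CPM (-1.01). That is 4% of the list, a smaller share than the 10.6% of all genes. By the median of ratios the glycolysis median was -0.18 and 0 members were at least 2-fold lower.

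The mitochondrial genome's own respiratory genes did not follow the nuclear ones. Of 13 members 9 lay above 0, with a median of 0.31. At least 2-fold higher were 3 (23.1%, beside 4.53% of all genes), and 0 were at least 2-fold lower. The complex I gene mt-Nd3 stood at 654 and 1839 CPM (1.49, 1.37 to 1.61), mt-Nd4l at 30.1 and 79.6 CPM (1.40) and mt-Nd6 at 4.15 and 17.7 CPM (2.09, 0.69 to 4.00). The complex IV genes mt-Co1, at 5526 and 3890 CPM (-0.51), and mt-Co3, at 11916 and 8424 CPM (-0.50), lay on the other side. All 7 complex I genes of this genome lay above 0 and all 3 complex IV genes below 0, also by the median of ratios, and the share of all mitochondrial UMIs was 4.35% and 3.99%. Outside the gate all 13 genes lay above 0, with a median of 0.93, and mt-Co1 had a ratio of 0.19.

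**Figure D3:**
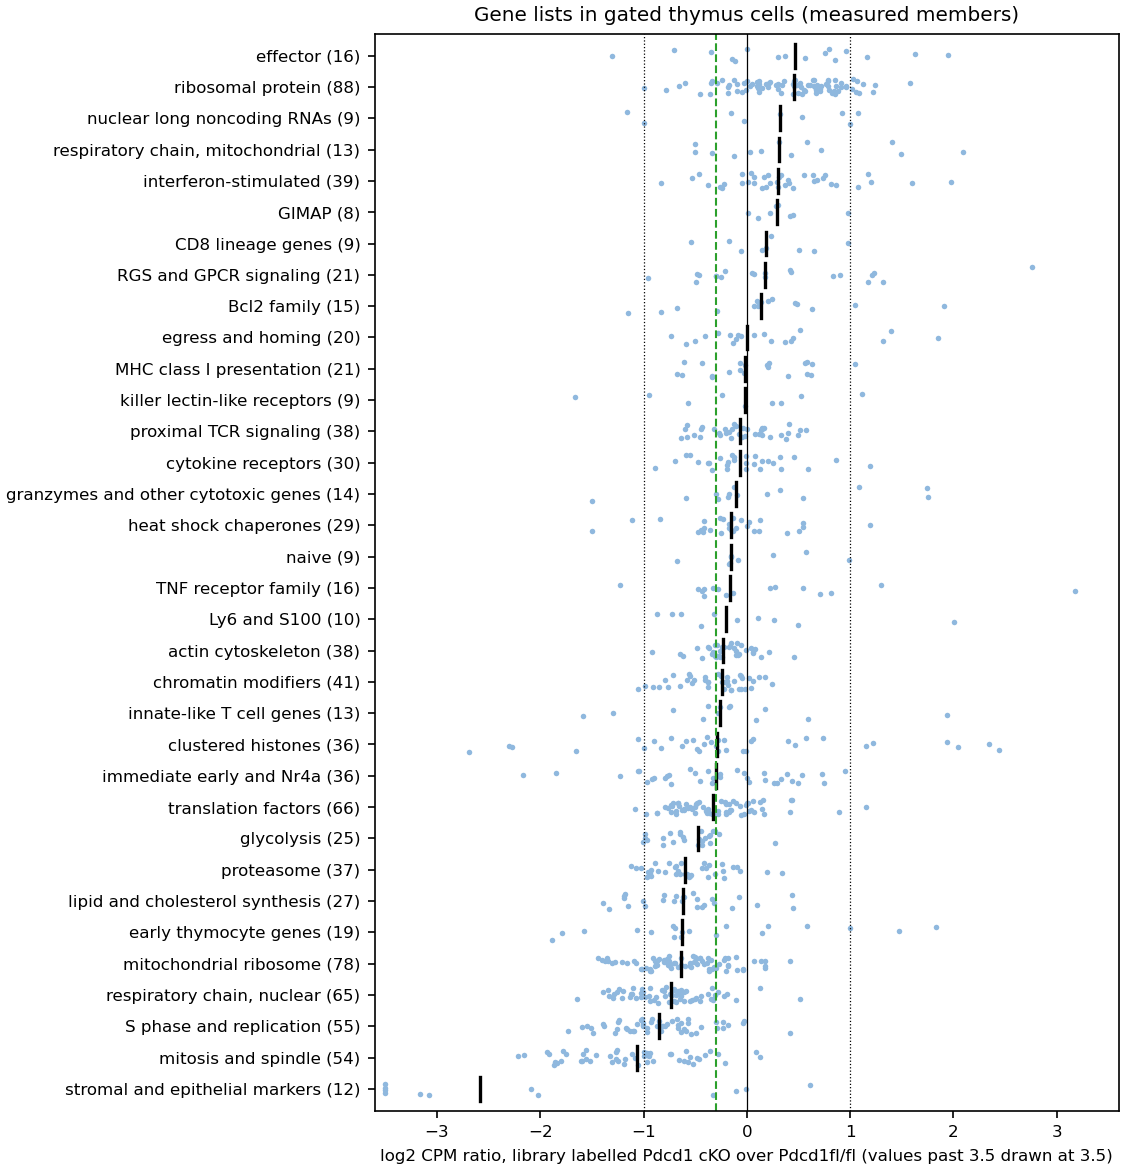
Log2 CPM ratio (cKO-labelled over fl/fl-labelled library) of each measured member (points) of the gene lists with at least 8 members, number in parentheses, with the list median as a bar; the dashed line is the median of all genes with at least 20 UMIs, -0.30, and dotted lines mark 2-fold. Mitosis (-1.07), S phase (-0.85) and nuclear respiratory chain (-0.73) lie left of all genes and ribosomal protein genes (0.46) right, while the stromal list (-2.58) rests on a few cells.

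**Figure D4:**
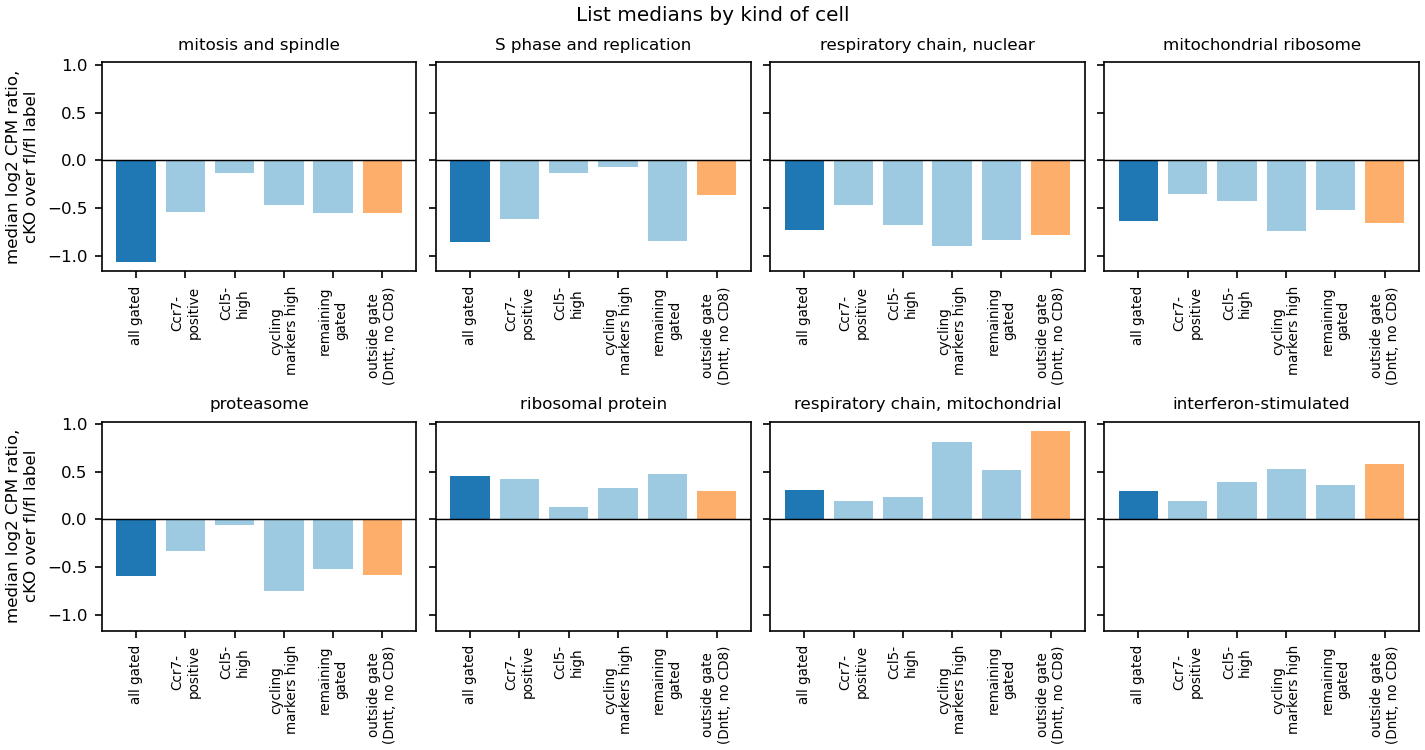
Median log2 CPM ratio of 8 gene lists in all gated cells, in 4 kinds of gated cells and in cells outside the gate with a Dntt UMI and no CD8 UMI, each bar from the summed cells of the same 2 libraries. The nuclear respiratory chain is negative in each kind of cell shown (-0.47 to -0.90), the ribosomal protein list positive (0.14 to 0.48), and the S phase list near 0 in cycling-marker-high cells (-0.07).

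Genes of cytosolic ribosomal proteins stood higher, as the UMI shares above require: 69 of 88 lay above 0, with a median of 0.46. At least 2-fold higher were 9 (10.2%, beside 4.53% of all genes), and Rps21 led at 2171 and 6500 CPM (1.58). Translation factors did not follow, with 15 of 66 above 0 and a median of -0.33. Eif5a, an elongation factor, stood at 707 and 333 CPM (-1.09) and stood alone in that list in being at least 2-fold lower, as Tpt1 did in being at least 2-fold higher.

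Interferon-stimulated genes stood higher by a smaller margin. Of 39 measured members 30 lay above 0, with a median of 0.30. At least 2-fold higher were 5 (12.8%, beside 4.53% of all genes with at least 20 UMIs), and none was at least 2-fold lower. Ifi47, an immunity-related GTPase, stood at 39.5 and 119 CPM (1.59, 1.12 to 2.11), and Ifi27l2a, a small membrane protein, at 186 and 418 CPM (1.17, 0.95 to 1.40). The antiviral genes Ifit1, at 9.35 and 21.5 CPM (1.20, 0.22 to 2.37), and Ifit3, at 9.35 and 19.7 CPM (1.08, 0.09 to 2.25), were more loosely measured. The highest was the RNA sensor Oas2, on 1 and 21 UMIs, and the lowest its relative Oas3 at 10.4 and 5.85 CPM (-0.83). Outside the gate the median of the list was 0.59.

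Of the genes for G protein signals, 5 of 21 measured members were at least 2-fold higher (23.8%) and none at least 2-fold lower. For all genes with at least 20 UMIs the shares were 4.53% and 10.6%. The median of the list was 0.17. Beside Rgs16, Rgs1, another brake on chemokine receptors, stood at 127 and 293 CPM (1.21, 0.94 to 1.49), and Gpr18, a lipid receptor of tissue-seeking lymphocytes, at 17.7 and 44.1 CPM (1.32, 0.61 to 2.12). In the egress and homing list 3 of 20 were at least 2-fold higher (15%, beside 4.53% of all genes), and the median was 0.01. Among the 3 were Gpr18 and the chemokine receptor Cxcr6, at 12.5 and 32.8 CPM (1.39). Cxcr6 guides effector cells into tissue, while S1pr1 and Klf2, which serve egress, stood at 147 and 200.5 CPM (0.44) and at 460.1 and 411 CPM (-0.16). S1pr1 had a UMI in 12.1% (8.24 to 16.9%) and 15.0% (12.8 to 17.4%) of thinned cells, and Klf2 in 31.7% and 30.4%.

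The early thymocyte list gave a mixed picture. Of 19 measured members 4 were at least 2-fold lower (21.1%) and 2 at least 2-fold higher (10.5%), with a median of -0.63. The shares of all genes with at least 20 UMIs were 10.6% and 4.53%. The recombinase gene Rag1 stood at 23.9 and 7.996 CPM (-1.58), Notch3, a Notch receptor, at 28.0 and 7.61 CPM (-1.88), Ptcra, the pre-receptor chain, at 11.4 and 3.32 CPM (-1.78), and Hes1, a Notch target, at 220 and 105 CPM (-1.06). Cd24a, which cells lose as they mature, stood at 117 and 75.3 CPM (-0.64). On the other side were Bcl6, a transcriptional repressor, at 8.31 and 23.01 CPM (1.47, 0.44 to 2.71), and Cd4, at 1 and 19 UMIs. Outside the gate the median of this list was 0.36.

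Further immune lists are given by their medians and counts. Among all genes with at least 20 UMIs, 4.53% were at least 2-fold higher and 10.6% at least 2-fold lower. Proximal T cell receptor signaling had a median of -0.07 with 0 of 38 members at least 2-fold apart, and actin cytoskeleton one of -0.23 with 0 of 38. MHC class I presentation had a median of -0.01, with 1 of 21 members at least 2-fold higher (4.76%, near the share of all genes). That member was H2-Q7, a class Ib gene, at 322 and 664 CPM (1.04, 0.88 to 1.22). The GIMAP list stood higher, with a median as far from that of all genes as the interferon list had. All 8 members of the GIMAP family, GTPases that keep naive lymphocytes alive, lay above 0, from Gimap3 at 68.5 and 69.0 CPM (0.01) to Gimap7 at 23.9 and 47.0 CPM (0.98), with a median of 0.30, and none was 2-fold apart. In Ccr7-positive cells the median was 0.07 and Gimap7 had a ratio of -0.21. In the TNF receptor family Tnfsf10, the death ligand TRAIL, had 1 and 48 UMIs (3.17, 0.62 to 8.51) and Tnfsf8, the CD30 ligand, stood at 9.35 and 23.01 CPM (1.30), while Tnfsf11, RANKL, stood at 31.2 and 13.3 CPM (-1.23). Cytokine receptors (-0.07), the Bcl2 family (0.14), chromatin modifiers (-0.24), heat shock chaperones (-0.15), innate-like T cell genes (-0.26), killer lectin-like receptors (-0.02) and granzymes and other cytotoxic genes (-0.11) had the medians given here, beside -0.30 for all genes.

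Clustered histone genes, which are copied in S phase, split. Of 36 measured members 6 were at least 2-fold higher (16.7%) and 5 at least 2-fold lower (13.9%). These shares were 4.53% and 10.6% for all genes with at least 20 UMIs, so the lower share was near that of all genes. The median was -0.29, beside -0.30 for all genes. H1f2, a linker histone, stood at 61.3 and 136 CPM (1.15, 0.77 to 1.56) beside H1f4, while H2bc11, a core histone, stood at 31.2 and 6.44 CPM (-2.28, -3.03 to -1.51). Most mRNAs of these genes end without a poly(A) tail, so their counts depend on the priming of the reverse transcription.

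Among noncoding genes the highest ratios were those of 9330159M07Rik at 2.08 and 21.1 CPM (3.34), Gm37401 at 5.19 and 49.5 CPM (3.25, 2.01 to 4.89) and Gm15738 at 5.19 and 29.8 CPM (2.52). The lowest were 2810403D21Rik at 46.7 and 12.9 CPM (-1.86), with 25 of 45 UMIs of the fl/fl-labelled library in 1 cell, 1700034P13Rik at 99.7 and 30.2 CPM (-1.72) and Gm19299 at 155 and 47.2 CPM (-1.71). Outside the gate Gm37401 stood at 2.53 and 47.2 CPM (4.22). Gm50021, chosen after its values were seen for its level, stood at 220 and 901 CPM (2.03, 1.83 to 2.24), with 97 of its 212 UMIs of the fl/fl-labelled library in 1 cell and a UMI in 7.92% and 50.8% of thinned gated cells and 2.33% and 42.4% of thinned cells outside the gate. Of the 46 genes chosen for the highest and lowest ratios, the largest changes in CPM and the noncoding extremes, 35 overlap another annotated gene, so part of their reads may belong to a neighbour.

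Immediate early genes show how few cells can set a ratio. Fos, a subunit of AP-1, stood at 394 and 109 CPM (-1.85, -2.04 to -1.66) and Egr1, a zinc finger factor of the same response, at 226 and 50.3 CPM (-2.17, -2.44 to -1.90). In the fl/fl-labelled library, 301 of 379 Fos UMIs and 188 of 218 Egr1 UMIs lay in 2 cells, which were also the 2 cells with at least 20 UMIs of the stromal and epithelial list and held 370 of its 478 UMIs. The library labelled Pdcd1 cKO had 2 such cells as well, with 166 of 559 Fos UMIs, 108 of 258 Egr1 UMIs and 217 of 779 stromal UMIs. Of the 28 stromal markers 12 were measured, 8 of them at least 2-fold lower (66.7%, beside 10.6% of all genes), with a median of -2.58. The list summed to 496 and 152 CPM, and 3 of its markers were at 0 in both libraries. Without these 4 cells the ratio was -0.10 for Fos and -0.11 for Egr1, while the medians of the mitosis list (-1.07), the nuclear respiratory chain list (-0.74) and the ribosomal protein list (0.45) stayed close to those over all gated cells.

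The leading genes were then set beside gated cells of the spleen and tumor, where each genotype also had 1 library. Each spleen library came from 1 mouse. Each tumor library was pooled from several mice on day 12 after B16-OVA injection. Of the 109 genes higher in the thymus, 84 were measured in the spleen and 18 (21.4%, or 4.15% of the 434 genes higher in the spleen) were at least 2-fold higher there too, where 6.14% of all genes were. Of the 356 lower genes, 313 were measured and 10 (3.19%) were at least 2-fold lower in the spleen, where 0.735% of genes were, and 15 (4.79%) at least 2-fold higher. Rgs16 had a log2 ratio of 3.35 in the spleen (5.08 and 51.7 CPM), Maf one of 2.89, Slc15a2 one of 1.28 (54.5 and 132.2 CPM) and S100a4 one of 1.93. Pde4a did not follow, at 5.08 and 6.17 CPM in the spleen (0.28). In the tumor Slc15a2 had a ratio of -1.66 and Lepr one of 2.07. Stmn1 stood at 48.7 and 66.6 CPM in the spleen (0.45) and at 193 and 334 CPM in the tumor (0.79), against -2.16 in the thymus, and Uqcr11 had ratios of -0.03 and -0.14. The mitosis list had a median of 0.25 in the spleen and the nuclear respiratory chain list one of -0.13, beside 0.18 for all genes there, and the median of all genes in the tumor was -0.14. Whether the tissues differ in these ratios was not tested, since each value rests on 1 library per genotype.

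**Figure D5:**
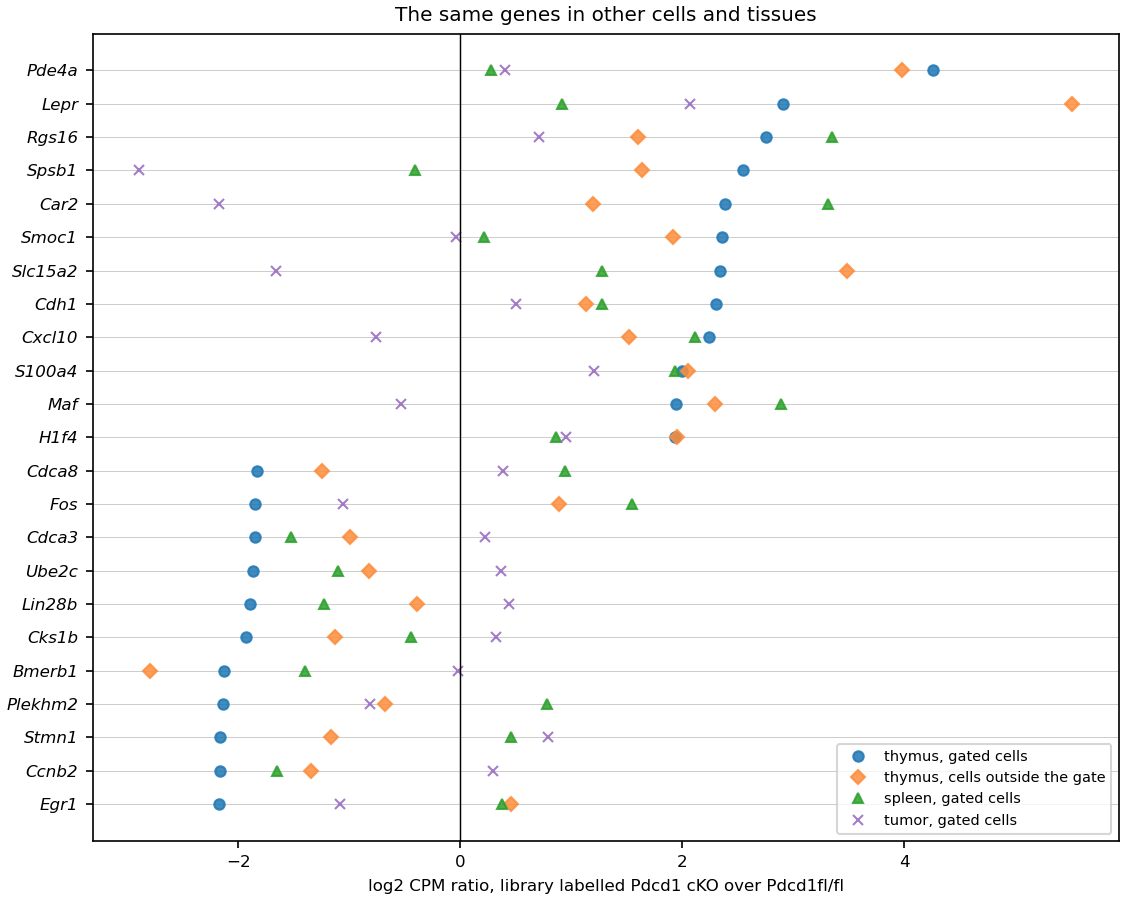
Log2 CPM ratio (cKO-labelled over fl/fl-labelled library) of the 12 protein-coding genes with the highest and 11 of the 12 with the lowest ratios, in gated thymus cells (circles), thymus cells outside the gate (diamonds), gated spleen cells (triangles) and gated tumor cells (crosses); a library at 0 counts was set to 3 counts. Slc15a2, Lepr and Pde4a are above 0 in both sets of thymus cells, and Stmn1 is at -2.16 in gated thymus cells and above 0 in the spleen and tumor.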

How the data were processed

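The thymus of 1 adult mouse per genotype was captured with PIPseq v3 after CD8a+ T cell isolation. The authors aligned reads to GRCm39 with the PIPseq pipeline and deposited raw UMI counts per gene and cell barcode. Seurat 4.3.0 is named in the submitters' processing notes. The handling of strand, overlapping genes and repeated copies is not given in the sources used here.

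Counts of the gated cells were summed per library and scaled to CPM, and as an alternative by the median of ratios. Intervals (95%) were exact conditional binomial for ratios, Clopper-Pearson for shares and Poisson for levels, and they cover counting error only. Genes needed 100 UMIs over both libraries, and list members 20. With 0 counts in a library the ratio used a floor of 3 counts (3.12 CPM in the fl/fl-labelled and 0.585 CPM in the cKO-labelled gated cells). Cell shares by marker were read after each cell had been thinned to 1000 UMIs. Doublets were not called. Classes of gated cells were assigned in the order stromal-high (20 list UMIs), cycling-marker-high (3), Ccl5-high (10), Ccr7-positive (2) and remaining.

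The members, the 40 gene lists and the tests were chosen with earlier results of these data known. Genes were named as the 12 highest and 12 lowest protein-coding ratios outside the effector, exhaustion, naive and ribosomal protein lists, the 8 largest gains and losses in CPM, 3 noncoding genes each way, and the extremes of each list. The gains and losses in CPM were taken outside the same lists and without mitochondrial genes. Named genes had a UMI in at least 5% of cells and the same direction by the median of ratios, apart from list extremes. Some genes that this rule takes are not reported here. Other list members were picked after their values were seen. Coordinates came from GENCODE vM39, which matched 31681 of 32227 gene identifiers, and promoters from RefSeq on GRCm38.p6. The scripts were tested on simulated data (Python 3.11.15, numpy 2.4.6, scipy 1.17.1, pandas 2.3.3).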

Additional observations from a re-analysis of the deposited data

Results flagged for a closer look

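Among the genes named above, 3 were at least 2-fold apart in opposite directions in the gated cells of thymus and spleen. Fos, the AP-1 subunit, had a log2 ratio of -1.85 in the thymus and 1.55 in the spleen. Its thymic value rests on the 2 stromal-marked cells of the fl/fl-labelled library, and without such cells it was -0.10. Ldhb, the lactate dehydrogenase subunit, had -1.01 and 1.41, and Bad, a promoter of cell death in the Bcl2 family, had -1.15 and 1.05. The difference between the tissues was not tested, since each had 1 library per genotype.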

How the results depend on the processing

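No paired analysis was possible because each genotype had 1 thymus library, and for the same reason no replicate could be left out. The genes at least 2-fold higher, at least 2-fold lower and the median ratio were 230, 108 and 0.00013 by the median of ratios, 204, 148 and -0.065 without mitochondrial, ribosomal protein and Malat1 counts in the total, 29, 67 and -0.22 with 500 UMIs per gene, and 40, 76 and -0.22 in cells thinned to 1000 UMIs. With 20 UMIs per gene 480 were higher and 1121 lower. Over all filtered cells 377 were higher and the median was -0.073. In Ccr7-positive cells alone the values were 60, 186 and -0.32. The median alone moved to -0.31 with the strict cell filter, -0.26 with the gate read on thinned cells, -0.26 with cells weighted equally, -0.22 without the top cell of each gene, -0.36 without cells with a Ccl5 UMI, -0.36 in cells with a Ccr7 UMI and -0.33 without cells with 10 Ccl5 UMIs.

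Ratios past 2-fold that changed sign were as follows, and the cause was not tested. Over all filtered cells Notch3 was 0.28, Tnfsf11 0.10, Tmem176b 0.39 and Meg3 0.065. In thinned cells Hdac2 was 0.47, and without its top cell Hspb1 was 0.090. Without cells with a Ccl5 UMI S100a4 was -0.28, Hspb1 0.19 and Sqle 0.095, and without cells with 10 Ccl5 UMIs S100a4 was -0.30 and Ccl3 -0.023. In cells with a Ccr7 UMI Il10ra was -0.037. In Ccr7-positive cells Spsb1 was -0.26, S100a4 -0.22, Lin28b 1.88, Il10ra -1.26, Ccl3 -2.16, Mki67 0.047, Cdk1 0.23 and Rrm2 0.085. Mki67 was 0.16 without cells with 3 cycling marker UMIs. Egr1 was 0.22 with at least 2 CD8 UMIs, and without cells with 2 stromal list UMIs Egr1 was 0.14 and Fos 0.12. Of 48 named genes within 2-fold, 17 changed sign under at least 1 alternative, among them Gimap7 (down to -0.21), Ptma (up to 0.12), Oas3 (up to 0.92), Tgfbr1 (up to 1.12), Gpr146 (up to 0.52), Pttg1 (down to -0.24) and Gimap3 (down to -0.25).

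Over the alternatives run, the list medians ranged from -1.47 to -0.54 for mitosis, -1.15 to -0.55 for S phase, -0.91 to -0.44 for the nuclear respiratory chain, -0.71 to -0.34 for the mitochondrial ribosome, 0.36 to 0.75 for ribosomal proteins and 0.18 to 0.74 for interferon-stimulated genes, without a change of sign. The 4 alternatives by Ccl5, Ccr7, cycling and stromal-high cells were chosen after seeing the data. Leaving out cells with 2 UMIs of the mitosis list left 6 and 8 cells and gave no usable value. Genes with few UMIs in the shallower library are limited by depth.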
